A study of Drosophila melanogaster with 4 samples.

Results

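The roX1 and roX2 neighbourhoods on the X chromosome of Drosophila melanogaster were examined for clusters of enrichment of POF, a protein named for painting chromosome 4, in chromatin immunoprecipitation followed by sequencing (ChIP-seq). A cluster is a stretch of the genome that the authors' caller marked as enriched. Members are the X clusters that overlap roX1 (X:3752973-3756730), roX2 (X:11473488-11474874) or the 100 kb on either side of these genes, on FlyBase release 5. Both gene positions are approximate release 5 positions. By this rule the list called from ChIP replicate 1 gave 13 members of 6433 clusters, the list from ChIP replicate 2 gave 20 of 5786, and the combined list of the replicate set gave 61 of 20574.

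The samples were wild-type Oregon-R larvae of the 3rd instar, with 2 POF ChIP libraries and 2 input libraries, and all 4 libraries share strain, genotype and stage. POF was precipitated with an affinity-purified polyclonal antibody from rabbit, made against its residues 1 to 150. Larval tissue was homogenized and crosslinked with formaldehyde, so each library pools cells of many types, and the labels used here do not state the sex of the larvae. Titles were used to assign the libraries, although the description of ChIP replicate 2 calls it input DNA and that of input replicate 1 gives the POF antibody, as does that of ChIP replicate 1. An exchange of these libraries was not tested, and each value from replicate 2 rests on its title. The median coverage of chromosome 4 windows, given below, was above the share of X in replicate 2 and below it in replicate 1.

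The roX genes encode long non-coding RNAs that join the MSL proteins in the dosage compensation complex, which raises transcription of the single X of males. The 2 RNAs differ in size and sequence but can stand in for each other in males, and both genes serve as entry sites from which the complex reaches the rest of the X. POF binds RNA and coats the small chromosome 4, and sites close to the roX genes are known as places on the X where it can also bind. In such bulk samples, a larger share of cells with POF at a site and more POF per cell cannot be told apart, and neither can males and females.

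On all of X, clusters covered 5.46% of the bases in replicate 1 (726 clusters), 10.6% in replicate 2 (1033) and 26.2% in the combined list (3053). The score of a cluster is the authors' value on a log2 scale with no stated reference, and its median on X was 0.74, 0.71 and 0.50 in the same order. Scores and ranks are read within 1 list only. A reach of 10 kb was chosen after the cluster positions were known. Counting each gene together with the 10 kb on its sides, clusters covered a larger share than on X as a whole in both replicates. For roX1 in replicate 2 this share was only 1.33 times that of X. Over the full 100 kb on each side, the roX1 neighbourhood lay near the middle of X windows of its size. The covered share of the roX2 neighbourhood exceeded that of 52.3% of such windows in replicate 1 and 72.5% in replicate 2. The roX2 gene was covered from end to end in replicate 2, and roX1 in part, whereas no replicate 1 cluster touched either gene. No read counts come with the clusters, so the depth behind each one is unknown. With 2 replicates, the smallest two-sided p of an exact sign-flip test is 0.5, so no test was made and values are set beside the spread between replicates.

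roX2, the shorter of the genes, carried the longest and highest-scoring member clusters of replicate 2. In that list, 1 cluster at X:11473322-11477917 (4596 bp, score 1.15) contained the whole gene. It began 166 bp below the gene's lower end and reached 3043 bp past its upper end. Its score ranked 108 of the 1033 X clusters and 508 of all 5786 clusters. Only 4.28% of 16165 adjoining X windows of the gene's length were wholly inside replicate 2 clusters, as roX2 was, and 16.4% were touched by one.

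Directly below lay a longer replicate 2 cluster at X:11463300-11472158 (8859 bp, score 1.39), which ended 1329 bp before the gene. Only 2 X clusters of that list were longer, and its score ranked 52 on X and 263 in the list. A gap of 1163 bp separated the pair, which together spanned 14618 bp with 92.0% of it inside clusters. The gene therefore sat near the lower edge of the upper cluster, and most covered sequence lay at lower coordinates than the gene.

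In the combined list the same pair stood at X:11463345-11472891 (9547 bp, score 1.04) and X:11473364-11477870 (4507 bp, score 0.73), 472 bp apart, and the upper cluster again held the whole gene. The lower cluster was the 9th longest of 3053 on X, ranked 55 there by score and 510 in the list. The upper cluster ranked 167 on X and 1081 in the list. Of X windows of the gene's length, 41.5% were touched by a combined cluster and 8.56% were wholly inside one.

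In replicate 1 no cluster touched roX2, where 9.73% of X windows of that length were touched. The nearest clusters were at X:11466078-11467929 (1852 bp, score 0.51), 5558 bp below the gene, and at X:11463847-11465305 (1459 bp, score 0.57), 8182 bp below it. Both lay wholly inside the long replicate 2 cluster. Their scores were among the lowest on X in replicate 1, at ranks 708 and 675 of 726, against rank 52 of 1033 for the replicate 2 cluster that contains them. On the upper side the nearest replicate 1 cluster was 37061 bp away, at X:11511936-11513341 (1406 bp, score 0.84), and it had the highest score of that list within 100 kb of roX2. Both replicates thus had clusters in the block below roX2, of 1459 and 1852 bp in replicate 1 against 8859 bp in replicate 2. They did not share the rank of these clusters within the list, nor the cluster over the gene. On all of X, 21.8% of replicate 2 clusters, of any length, were touched by a replicate 1 cluster, so such contact is not particular to roX2.

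**Figure D1:**
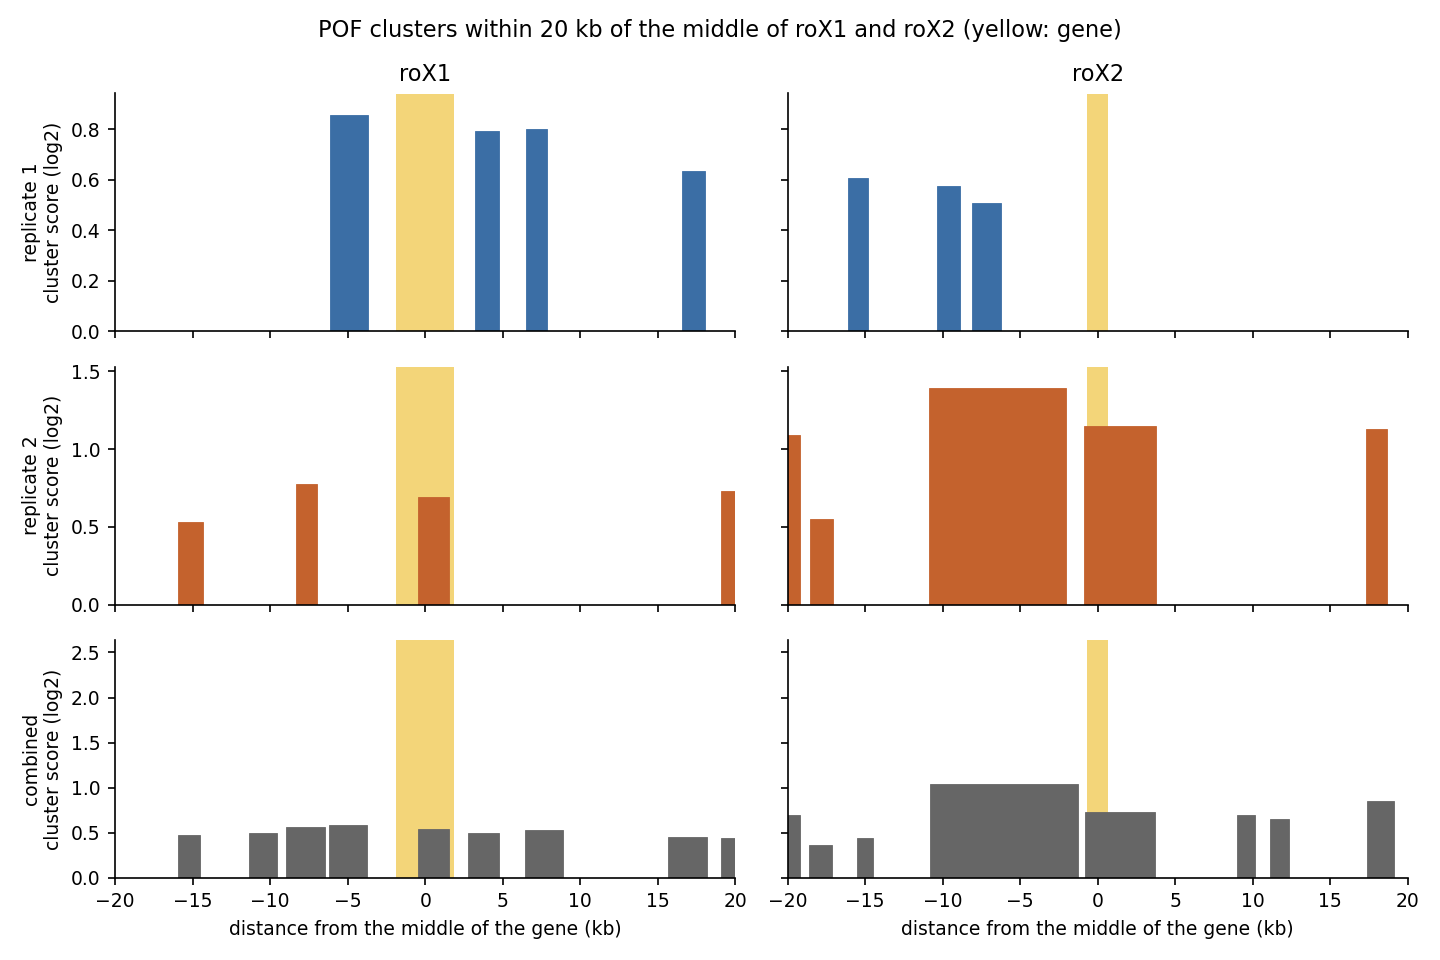
POF clusters near roX1 (left) and roX2 (right) in the lists of replicate 1, replicate 2 and the combined set. Each bar is a cluster, its width the cluster's length and its height the score (log2, own scale for each list), placed by distance in kb from the middle of the gene, and the yellow band is the gene. Replicate 2 clusters of 8859 and 4596 bp lie below and over roX2, and the 3 replicate 1 clusters nearest to roX1 flank the gene without touching it.

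A further 2 replicate 2 clusters with scores above 1 lay within 20 kb of roX2. The lower one was at X:11451708-11455007 (3300 bp, score 1.09), 18480 bp below the gene, and ranked 121 on X. The other was short, at X:11491477-11492864 (1388 bp, score 1.13), 16602 bp above the gene, and ranked 112 on X. Neither was touched by a replicate 1 cluster. Both had a counterpart in the combined list, at X:11451757-11454994 (3238 bp, score 0.70) and X:11491527-11493272 (1746 bp, score 0.85). The other 6 replicate 2 members around roX2 scored between 0.53 and 0.63, below that list's X median of 0.71.

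In each list, the longer X clusters had a higher median score than the shorter ones. At a length of 2000 bp, a limit chosen after the values were seen, the median replicate 2 score was 0.61 for the 500 shorter clusters and 0.85 for the 533 clusters of at least that length. Among the 533, 51 scored above the 8859 bp cluster, 106 above the cluster over roX2 and 117 above the one at 11451708. Among the 500 shorter clusters, only 1 scored above the 1388 bp cluster. In replicate 1 the medians were 0.72 and 0.82, and in the combined list 0.48 and 0.55.

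**Figure D2:**
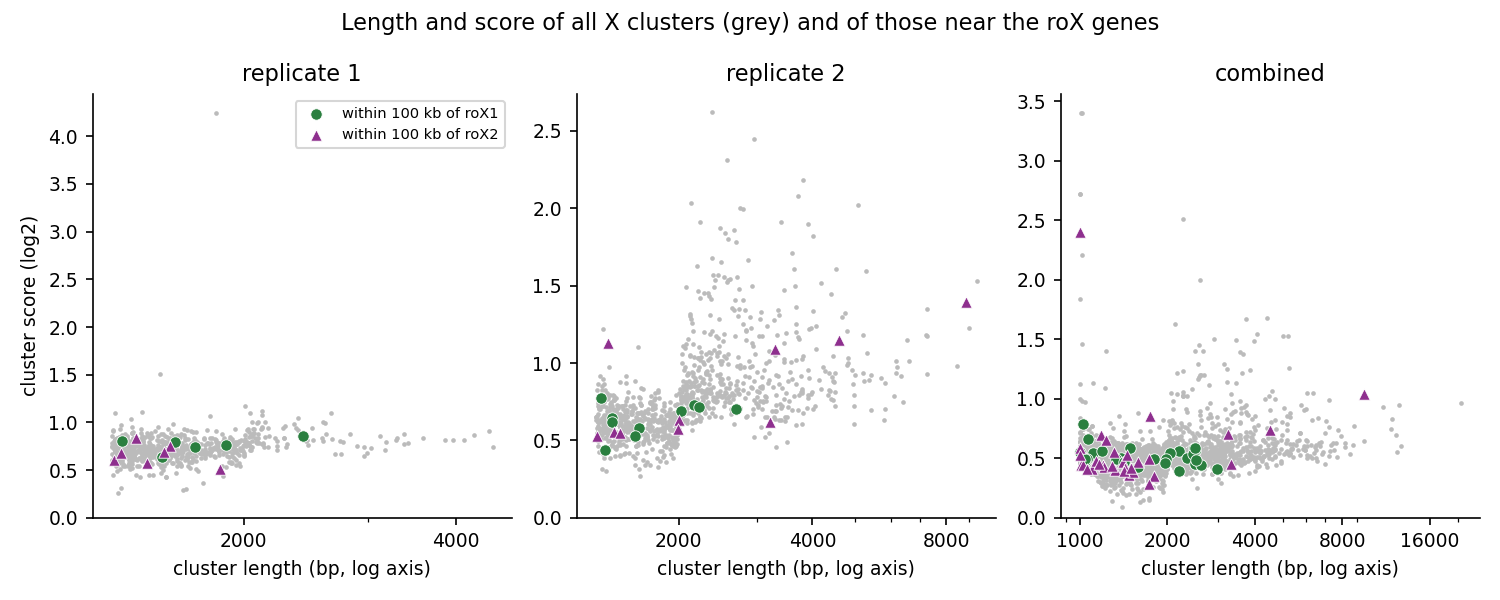
Length in bp (log axis) and score (log2) of every X cluster in each list (grey), with the clusters within 100 kb of roX1 as green circles and of roX2 as purple triangles. In replicate 2 the 8859 bp cluster below roX2 stands at the long end with a score of 1.39, whereas all roX1 members lie at or below 0.78.

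roX1, the longer gene, was covered in part and by clusters of middling score. In replicate 2, 1 cluster at X:3754352-3756378 (2027 bp, score 0.69) lay wholly inside it and held 53.9% of its bases, starting 1379 bp above the lower end and stopping 352 bp before the upper end. Its rank was 553 of 1033 on X and 2062 in the list. Of 5965 X windows of the gene's length, 24.5% were touched by a replicate 2 cluster and 7.48% were covered to at least the same share. The combined list had nearly the same cluster, at X:3754364-3756405 (2042 bp, score 0.54), with 54.3% of the gene inside and rank 945 of 3053 on X. There, 58.7% of the windows were touched and 18.8% were covered to at least that share.

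Replicate 1 had no cluster over roX1, where 16.5% of X windows of the gene's length were touched, but it had clusters close by on both sides. The nearest was at X:3758034-3759634 (1601 bp, score 0.79), 1303 bp above the gene. It was followed by X:3761331-3762674 (1344 bp, score 0.80), 4600 bp above it. On the lower side, X:3748710-3751135 (2426 bp, score 0.86) ended 1837 bp before the gene, ranked 90 of 726 on X and 342 in the list, and was the longest and highest-scoring replicate 1 member around roX1. Replicate 1 therefore left a clear stretch of 6898 bp that held the gene, and the replicate 2 cluster fell inside that stretch.

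The nearest replicate 2 clusters outside roX1 were farther off, at X:3746533-3747868 (1336 bp, score 0.78), 5104 bp below, and X:3773932-3776097 (2166 bp, score 0.73), 17201 bp above. The former had the highest replicate 2 score around roX1. Within 10 kb of roX1 the 3 replicate 1 clusters and the 2 replicate 2 clusters shared no base. With 31.1% of replicate 1 clusters and 21.8% of replicate 2 clusters on X touched by the other list, this lack of overlap among 5 clusters does not set roX1 apart. The combined list held clusters at all 5 places, and 1 more at X:3743506-3745304 (1799 bp, score 0.50). Those next to the gene were X:3748615-3751092 (2478 bp, score 0.59), 1880 bp below, and X:3757637-3759616 (1980 bp, score 0.49), 906 bp above.

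The extent of roX1 bears on whether replicate 1 touched it. A gene table of genome release 6, whose coordinates were not used, gives roX1 a length of 5468 bp, 1710 bp more than the 3758 bp used here, and roX2 a length of 1368 bp against 1387 bp. The 1710 bp are a total, and how they divide between the ends of roX1 was not determined. With all 1710 bp added at each end, an upper limit, a replicate 1 cluster would touch roX1 on the upper side only. The lower gap is 1837 bp and the upper gap 1303 bp, so an upper extension of 1303 bp or less would leave roX1 untouched. In the release 6 table roX1 overlaps ec (echinus, needed for normal eye development) and is followed by yin, which encodes an oligopeptide transporter. Where ec and roX1 overlap, a cluster cannot be assigned to either gene. The gene next to roX2 on the lower side is CG11695, and on the upper side nod, which encodes a kinesin-like protein needed for chromosome segregation in female meiosis. No gene other than roX1 and roX2 was placed on these coordinates, so neither the other dosage compensation genes (msl-1, msl-2, msl-3, mle and mof) nor Pof have a value here.

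At the reach of 10 kb chosen afterwards, the genes with their close flanks were covered more than X in every list. Over roX1 and the 10 kb on each side, the covered share was 22.6% in replicate 1 and 14.2% in replicate 2, a mean of 18.4% ± 5.98 (SD, n = 2). These shares were 4.14 and 1.33 times those of X in the same lists, a mean ratio of 2.74 ± 1.98 (SD, n = 2). Both replicates were above X, but the excess over 1 was smaller than the SD. Without the gene itself, the flanks alone had a covered share of 26.9% (replicate 1) and 6.68% (replicate 2), the latter below the 10.6% of X. In the combined list the share was 55.8%, or 2.13 times that of X.

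Over roX2 and its 10 kb flanks the share was 15.5% in replicate 1 and 62.0% in replicate 2, a mean of 38.8% ± 32.9 (SD, n = 2). The ratios to X were 2.83 and 5.85, a mean of 4.34 ± 2.13 (SD, n = 2), and the combined list gave 70.6%, or 2.69 times that of X. The flanks alone had a covered share of 16.6% (replicate 1) and 59.4% (replicate 2). Here the excess over 1 was larger than the SD between replicates. Of 1047 adjoining X windows of that size, 1 was covered more in replicate 2, 34 in the combined list and 110 in replicate 1. For the roX1 windows, 19 of 942 were covered more in replicate 1, 294 in replicate 2 and 79 in the combined list. Replicate 1 ranked roX1 higher and replicate 2 ranked roX2 higher, so the order of the genes was not the same in the replicates. The reach of 10 kb was chosen after the cluster positions were known.

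The sides of the genes differed. Within 10 kb below roX2, clusters covered 33.1% of the bases in replicate 1, 88.4% in replicate 2 and 95.3% in the combined list, against 0%, 30.4% and 41.8% within 10 kb above it. At roX1 the lower and upper sides had 24.3% and 29.5% in replicate 1, 13.4% and 0% in replicate 2, and 67.8% and 44.4% in the combined list. Within this reach all 3 lists had more on the lower side of roX2, and for roX1 the replicates differed in which side was higher. Over the full 100 kb, replicate 1 had more on the upper side of roX2 (5.87%, against 4.62% below). Replicate 2 (18.3% below, 9.90% above) and the combined list (29.6% below, 26.8% above) had more on the lower side. The combined list belongs to the replicate set and was not taken as independent of the replicates, though how it was made is not stated.

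Farther out the excess was gone or uneven. From 10 to 25 kb, both sides together were covered to 5.10% around roX1 and 4.37% around roX2 in replicate 1, against 5.46% for X, and to 12.5% and 21.0% in replicate 2, against 10.6% for X. From 25 to 50 kb, replicate 1 had 0% around roX1 and 2.81% around roX2, and replicate 2 had 3.26% and 10.9%. From 50 to 100 kb every replicate value was below that of X, at 3.59% and 4.46% in replicate 1 and 9.12% and 4.52% in replicate 2. In the combined list X was covered to 26.2%. Around roX1 that list had 21.9%, 16.6% and 24.3% in the same order of distance, all below X. Around roX2 it had 29.55%, 36.9% and 15.3%, so it stayed above X out to 50 kb.

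**Figure D3:**
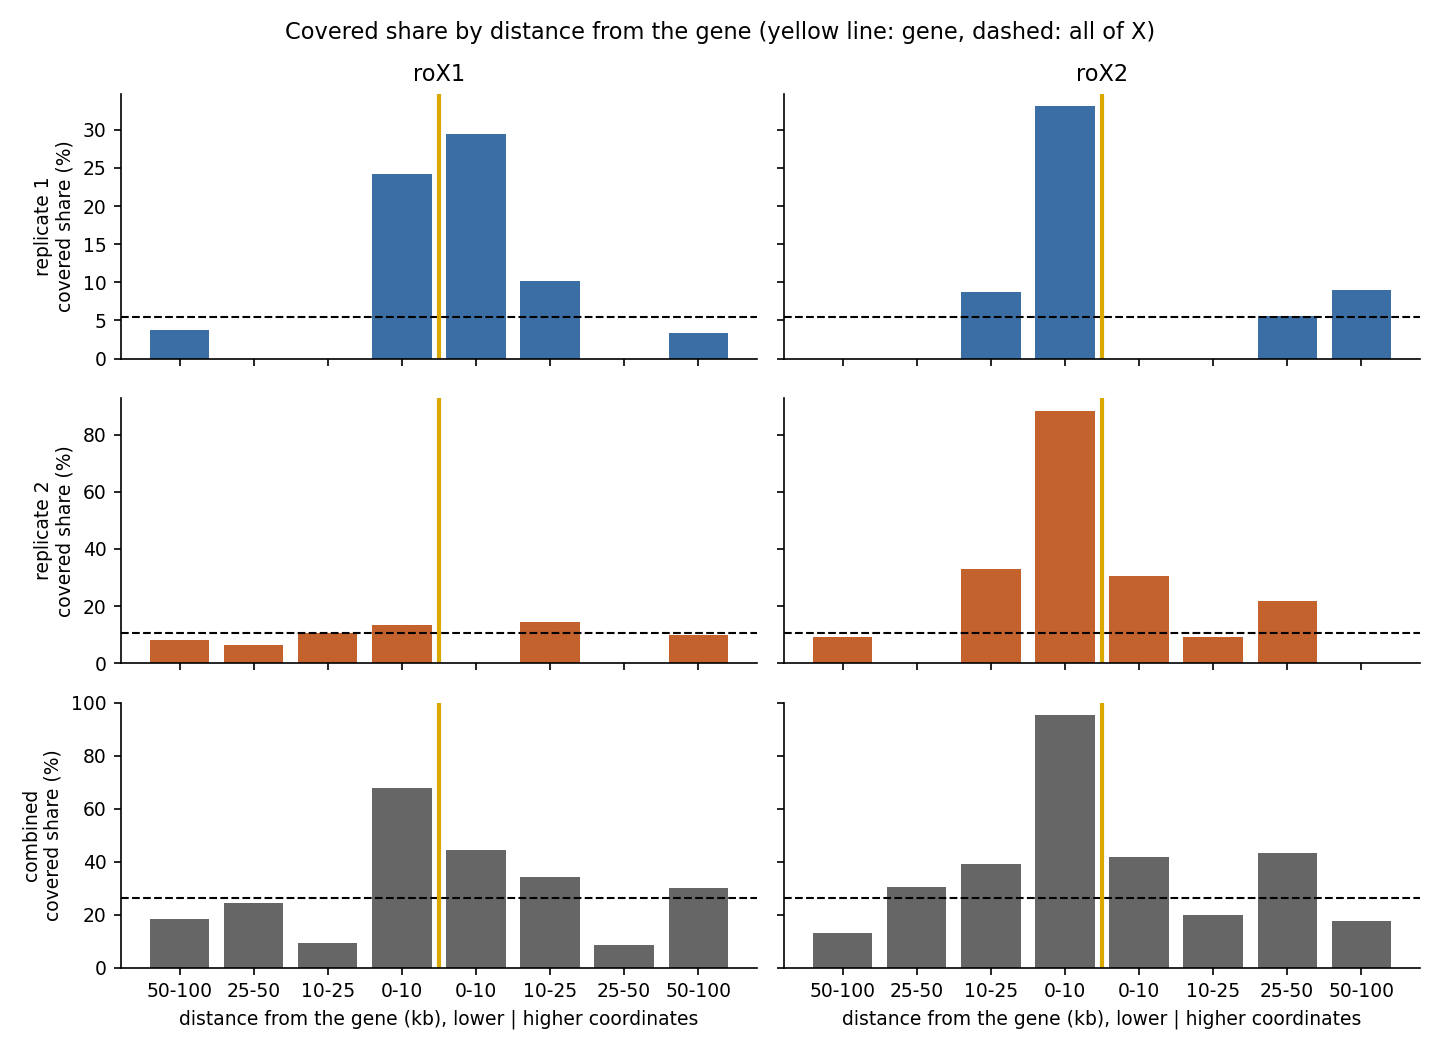
Share of bases inside clusters (%) by distance from roX1 (left) and roX2 (right), in kb, with lower coordinates left and higher coordinates right of the yellow line that marks the gene. The dashed line is the share of all X in that list. The tallest bar of each roX2 panel is the lower 10 kb, at 33.1% in replicate 1, 88.4% in replicate 2 and 95.3% in the combined list.

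Over the full reach of 100 kb on each side, the roX1 neighbourhood was ordinary among X windows of its size (203758 bp). It held 6 clusters in replicate 1, 10 in replicate 2 and 29 in the combined list, against window medians of 6, 8 and 27.5. Its covered share was 5.15% in replicate 1 and 8.77% in replicate 2, a mean of 6.96% ± 2.56 (SD, n = 2). Of the other 108 windows, 51.9% had a lower share in replicate 1 and 46.3% in replicate 2, equal values being split evenly, a mean of 49.1% ± 3.93 (SD, n = 2). In the combined list the share was 25.7%, with 55.6% of windows lower. The highest scores were 0.86, 0.78 and 0.78 in replicate 1, replicate 2 and the combined list, above those of 44.4%, 10.2% and 32.4% of the windows. In replicate 2, 97 of the 108 windows held a higher score. The median scores of its members were 0.78, 0.67 and 0.50, with a higher median in 23 of 107, 75 of 106 and 59 of 108 windows with a cluster.

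The roX2 neighbourhood (201387 bp) held 7, 10 and 32 clusters, against window medians of 6, 9 and 26. Its covered share was 5.21% in replicate 1 and 14.7% in replicate 2, a mean of 9.95% ± 6.70 (SD, n = 2). The share exceeded that of 52.3% of the other 109 windows in replicate 1 and of 72.5% in replicate 2, a mean of 62.4% ± 14.3 (SD, n = 2), and the combined list gave 28.7% and 64.2%. The distance of this mean from the middle of the windows was smaller than the SD between replicates. Its highest scores, 0.84, 1.39 and 2.40, were above those of 36.7%, 67.9% and 95.0% of the windows. The median score of its members was low in each list, at 0.68 in replicate 1, 0.62 in replicate 2 and 0.45 in the combined list. Of the windows with a cluster, 89 of 105, 89 of 106 and 108 of 109 had a higher median in the same order. The high scores around roX2 were thus those of a few clusters near the gene in replicate 2 and the combined list, and of a short combined cluster farther off. The length of its longest cluster was exceeded in 2 of 109 windows in replicate 2, in 8 in the combined list and in 78 in replicate 1.

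**Figure D4:**
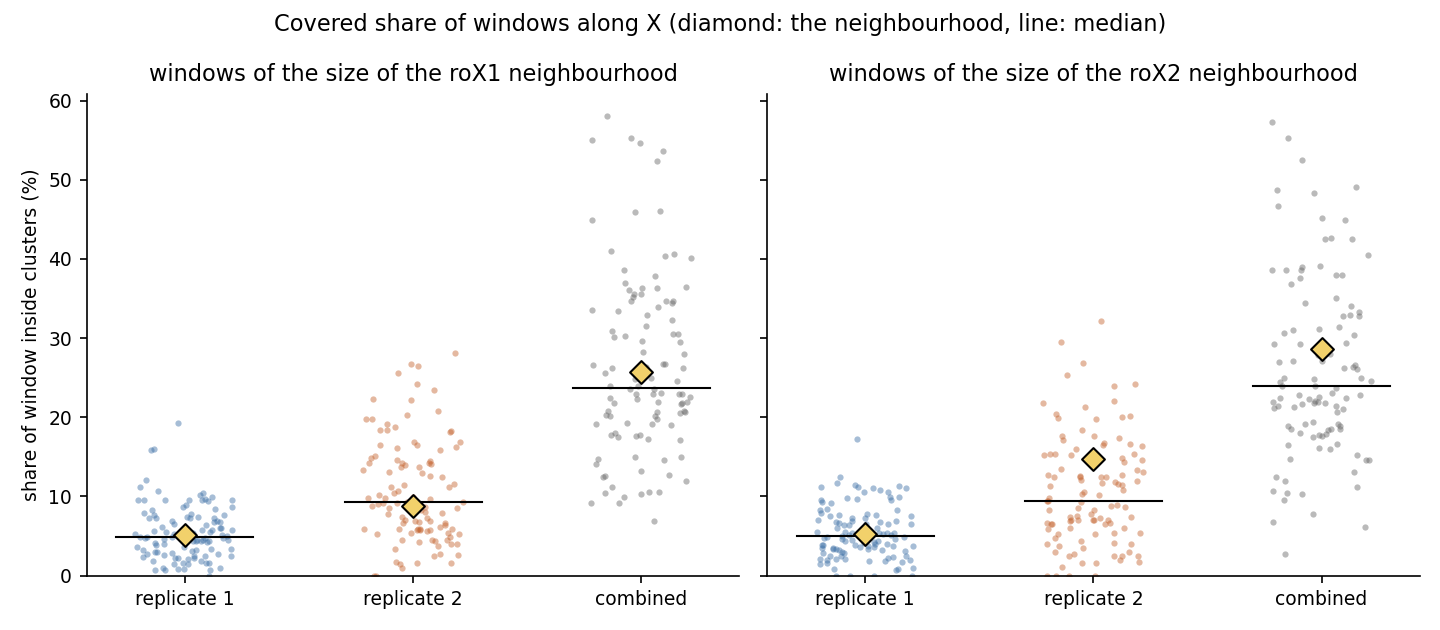
Covered share (%) of adjoining X windows of the size of the roX1 neighbourhood (left, 108 windows) and of the roX2 neighbourhood (right, 109 windows) in each list. Dots are windows, lines are their medians, and diamonds are the neighbourhoods. The roX1 diamonds lie near the medians, and the roX2 diamond of replicate 2 stands at 14.7% against a median of 9.45%.

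Chromosome 4, the main target of POF, gives another yardstick at the same window sizes. In replicate 2, the 6 chromosome 4 windows of the size of the roX2 neighbourhood were covered to between 25.9% and 32.6%, all above the 14.7% around roX2. In replicate 1 they were covered to between 2.05% and 7.11%, and 1 of 6 was above the 5.21% around roX2. Their median was 29.2% in replicate 2, against 10.6% for all of X. In replicate 1 it was 3.34%, against 5.46% for all of X. In windows of the size of roX2 with 10 kb flanks, chromosome 4 had a median of 18.4% and a highest value of 77.6% in replicate 2, and 10 of 63 windows were above the 62.0% of roX2. In the combined list 1 of these 63 windows was above the 70.6% of roX2, and in replicate 1 4 of them were above its 15.5%. In replicate 1, 66.7% of these chromosome 4 windows held no cluster, against 50.6% of the X windows of that size. For roX1 with 10 kb flanks, 2 of 56 chromosome 4 windows were covered more in replicate 1, 35 in replicate 2 and 8 in the combined list. Over the full neighbourhood of roX1, 1 of 6 was covered more in replicate 1 and 6 of 6 in replicate 2 and in the combined list. Whether the sparse coverage of chromosome 4 in replicate 1 bears on its lack of clusters over the roX genes was not tested.

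The highest combined score in either neighbourhood belonged to a short cluster at X:11432700-11433700 (1001 bp, score 2.40), 39787 bp below roX2. It was 6th on X and 68th in the list, had the smallest length found in the combined list on X, and was touched by neither replicate list. Its score is exactly 2 log2 units, or 4-fold, above the most frequent score of the list (0.40), and 15 clusters of the list share that value. Of the 8 X clusters with at least this score, 5 had the minimum length and 1 was touched by a replicate. Among combined clusters touched by a replicate, the highest score around roX2 was the 1.04 of the 9547 bp cluster, and 70.6% of windows were then lower. The 2 highest combined scores around roX1 were also of short clusters, at X:3696768-3697792 (1025 bp, score 0.78) and X:3691552-3692620 (1069 bp, score 0.66), and neither was touched by a replicate.

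Few members were shared by the replicates. Of the 13 replicate 1 members, 3 (23.1%) were touched by a replicate 2 cluster, against 31.1% of all X clusters of replicate 1. Of the 20 replicate 2 members, 2 (10%) were touched by replicate 1, against 21.8% on X. Besides the block below roX2, the shared place was on the lower side of roX1, 75.5 kb away in replicate 1 and 74.7 kb away in replicate 2, at X:3675565-3677451 in replicate 1 (1887 bp, score 0.77) and X:3675610-3678304 in replicate 2 (2695 bp, score 0.70), which share 1842 bp. In the combined list it stood at X:3675515-3677720 (2206 bp, score 0.56).

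Of the 61 combined members, 2 (3.28%) were touched by both replicates, against 7.37% of X clusters, and 32 (52.5%) by neither, against 52.9%. Replicate 2 alone touched a further 17 (27.9%, against 25.4% on X), and replicate 1 alone touched 10 (16.4%, against 14.4%). These shares rest on few clusters. Those for both replicates are below that of X, and the others are near it. All 13 members of replicate 1 and all 20 of replicate 2 were touched by a combined cluster, as were 93.5% and 97.3% of the X clusters of these lists.

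**Figure D5:**
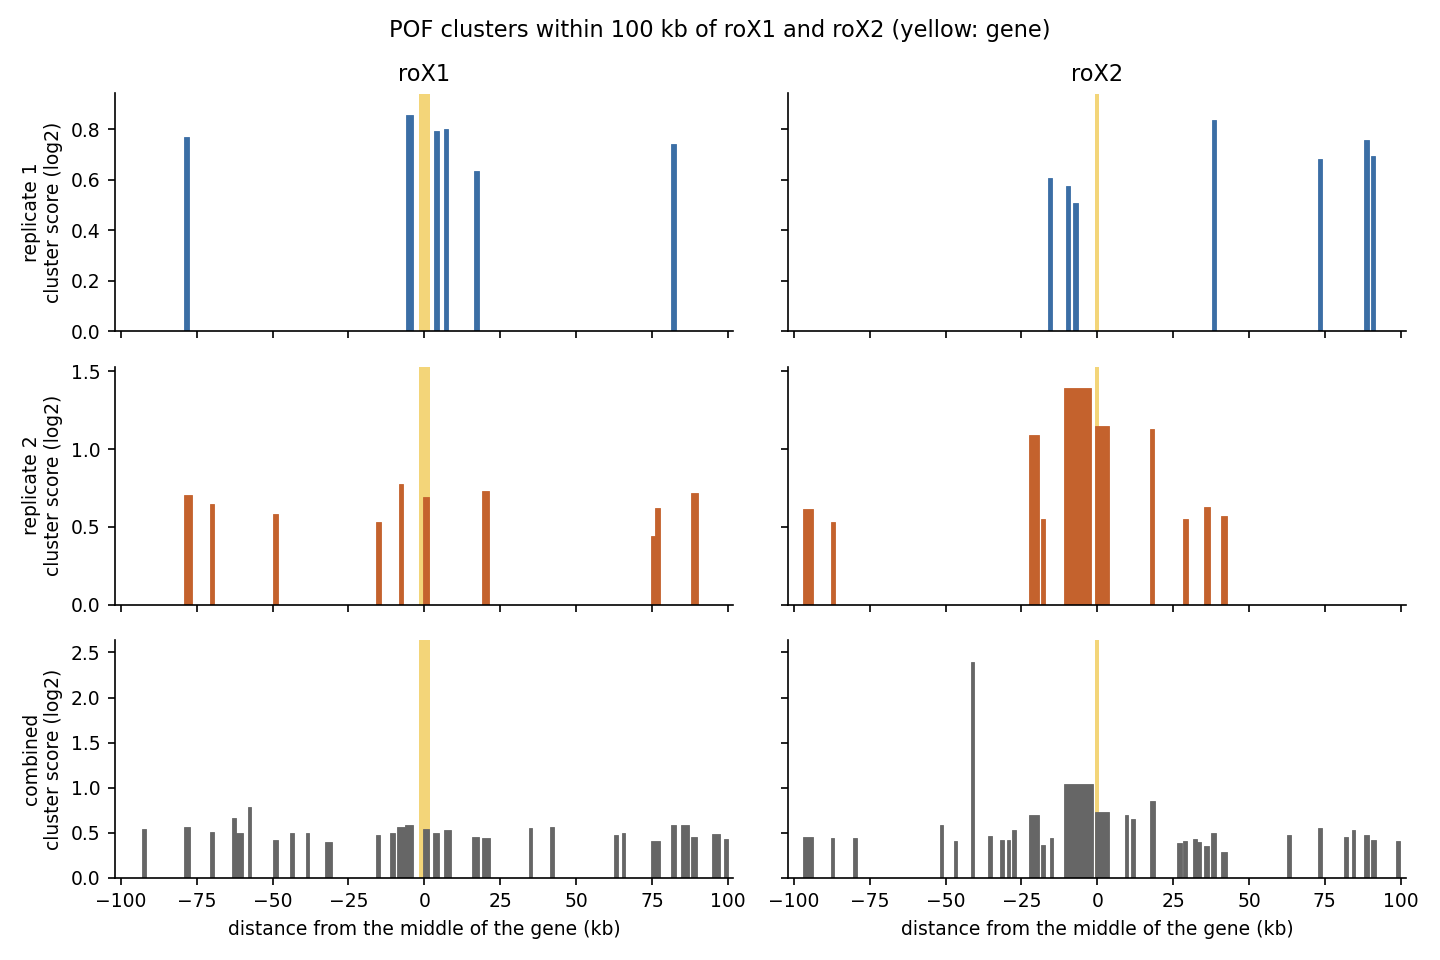
All clusters within 100 kb of roX1 (left) and roX2 (right), as bars whose width is the cluster's length and whose height is its score (log2, own scale for each list), by distance in kb from the middle of the gene (yellow). The combined list shows 29 clusters around roX1 and 32 around roX2, with the score of 2.40 at a 1001 bp cluster below roX2.

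Apart from the clusters near roX2, few replicate members stood out by length or score. The member lengths around roX1 ran from 1344 to 2426 bp in replicate 1 and from 1336 to 2695 bp in replicate 2, and none reached the top 10% of X scores in either list. Around roX2 the replicate 1 members ran from 1310 to 1852 bp, also with none in the top 10%, and 1 of the 10 replicate 2 members was in the top 10%. The lower side of roX2 also held a long but low-scoring replicate 2 cluster at X:11377313-11380516 (3204 bp, score 0.62, rank 748 of 1033 on X), 92971 bp from the gene. In the combined list 7 of 32 members around roX2 and 2 of 29 around roX1 were in the top 10%. Above roX2 these included a pair at X:11483181-11484361 (1181 bp, score 0.70) and X:11485287-11486522 (1236 bp, score 0.66), 8306 and 10412 bp from the gene, which neither replicate touched.

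The limit of 100 kb fell between clusters. In the combined list the outermost member above roX1 lay 96.7 kb away (score 0.43) and the next cluster outside lay 100.4 kb away (score 0.49). Above roX2 the corresponding clusters lay at 97.9 kb (score 0.41) and 100.8 kb (score 0.51). In replicate 2 the first cluster outside above roX2 lay at 100.6 kb (score 0.63), against an outermost member at 40.2 kb (score 0.57).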

How the data were processed

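POF ChIP-seq and input libraries of wild-type larvae were analysed from 3 deposited lists of enriched clusters, 1 for each ChIP replicate and 1 combined. Alignment used Bowtie 0.12.7, per the submitters' processing notes, and positions follow FlyBase release 5, per the file headers. The caller, its threshold, the input used and how the combined list was made are not stated in the labels or headers used here. The score deposited by the authors was taken as log2 from its values. Relative to the most frequent score of replicate 1, 90.8% of the other 6241 scores were log2 values of fractions with denominators up to 200 (relative tolerance 1e-09), and 0% were natural logs of such fractions. For log2 this held for 31.1% of replicate 2 scores and 47.1% of combined scores. A region called depleted (1 in the combined list) was left out. Nothing in the labels says that the replicates come from separate collections of larvae, so their spread may be technical.

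Overlap meant at least 1 bp, and distance is the number of bases between gene and cluster. Each neighbourhood was ranked among adjoining windows of its size along X, in phase with it. Windows of 1 list are not replicates, and ranks are descriptions without a test. Clusters were named by a fixed rule: those over a gene, the nearest on each side, the 3 highest scores and the longest of each neighbourhood, and those shared by both replicates. Other clusters named in the text were chosen after their values were seen. The members and rules were chosen with earlier results of these data known. The alternatives were other reaches, window placements and cluster filters. Functions were tested on simulated data. Python 3.11.15, numpy 2.4.6, pandas 2.3.3 and matplotlib 3.10.9 were used. No sequence of either gene was used here.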

Additional observations from a re-analysis of the deposited data

How the results depend on the processing

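The values below are percentages of windows with a lower value, unless a distance is named. A reach of 10 kb, added after the data were seen, gave 83.4% for the covered share around roX1 (mean of replicates) and 91.6% (combined list), and 94.7% and 96.8% around roX2. For the highest score around roX1 it gave 79.1% and 57.7%. Windows without a cluster count as lower there, and they were 48.3% of the windows in replicate 1, 42.5% in replicate 2 and 5.31% in the combined list. Of the windows with a cluster, 92 of 487 had a higher score in replicate 1, 302 of 542 in replicate 2 and 398 of 892 in the combined list. A reach of 50 kb gave 56.1% for the roX1 covered share (mean of replicates) and 86.8% for that of roX2 (combined list). A reach of 200 kb gave 37.7% and 34.0% for the roX1 covered share (mean of replicates and combined list) and 25.9% for the roX2 highest score (mean of replicates). Against windows of all 6 arms, the covered share stood at 33.8% (mean of replicates) and 32.0% (combined list) for roX1 and 43.0% (combined list) for roX2. Clusters at or above the median score gave 46.3% for the roX2 covered share (mean of replicates), and moved the mean distance from roX2 to the nearest cluster from 2779 to 18530.5 bp, since the replicate 1 clusters below the gene were dropped. Combined clusters touched by a replicate gave 48.1% for the roX1 covered share and 70.6% for the roX2 highest score, in which the 1001 bp cluster was dropped. The roX1 highest score in the combined list fell from 32.4% to 10.2% with clusters touched by a replicate and to 13.1% with a reach of 50 kb, both within the SD between replicates. These 2 are among the 59 of 77 values that moved by no more than 1 SD between replicates. That count does not measure stability, since part of it was fixed in advance. With 2 replicates, leaving 1 out moves their mean by no more than their SD, whatever the values. Dropping clusters below the median score, or merging those within 1000 bp, keeps the highest score, and left all percentages for highest scores unchanged. For covered shares, leaving out a replicate gave 46.3% to 51.9% for roX1 and 52.3% to 72.5% for roX2. For highest scores it gave 10.2% to 44.4% and 36.7% to 67.9%. The distance to the nearest cluster ran from 0 to 1303 bp for roX1 and from 0 to 5558 bp for roX2. Where no cause is named, the cause was not tested. No paired analysis was possible because only ChIP lists were used and no result comes from a test. Unknown depth limits what the absence of a replicate 1 cluster over either gene can show.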
